A study of Oryza sativa with 51 samples.

Results

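The 5 pseudo-response regulator (PRR) genes of rice were followed through 48 h in flag leaves: PRR73 (LOC_Os03g17570), PRR37 (LOC_Os07g49460), PRR95 (LOC_Os09g36220), PRR59 (LOC_Os11g05930) and PRR1, also called TOC1 (LOC_Os02g40510). They were chosen by locus identifier, as a gene family, from a table of 34653 genes, with earlier results of these data known. All 5 had a mean of at least 1 FPKM (fragments scaled by transcript length and by library) over all libraries, the filter that left 16842 genes for testing. Their symbols come from general knowledge of rice genes, since the table lists locus identifiers alone. No coordinates and no sequences are given, because no source used here names the table's genome build.

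The samples are flag leaves of field-grown rice at grain filling, from 3 lines: LY2186 (a hybrid), SE21s (its sterile parent line) and MH86 (its restorer parent line). No treatment or transgene is named for any line. Each line has 17 libraries, 1 at each Zeitgeber time (ZT) from 0 to 48 h in steps of 3 h, which makes 51 in all. Every group therefore has 1 library per time, and replicates of a line and time are absent. In the tests by hour the spread comes from the same hour on the other day, pooled over all hours. A single hour is thus not judged by its own spread. In the tests of level and of the daily curve it is the scatter of lines over the times, which includes differences in the curve. The labels name neither the light schedule nor the plants behind each library, so each p-value reflects only the scatter among these 51 libraries and may be technical.

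PRR proteins are repressors in the plant circadian clock. They carry a receiver-like domain at one end and a CCT domain, which contacts DNA, at the other. In Arabidopsis the family is expressed in succession from morning to evening, and its members repress CCA1 and LHY, the MYB genes of dawn, which in turn repress TOC1. In rice PRR37 is also a heading date gene that delays flowering in long days, and PRR37 and PRR73 form a pair of close relatives, as do PRR95 and PRR59.

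The libraries resembled each other in overall scale. Their upper quartiles spanned 9.13 to 10.7 FPKM, while FPKM sums ran from 824900 to 2468000. Fragment counts are unknown, and low values placed the relative depth of libraries at up to 2.73 times that of the SE21s library at ZT0. The summed level of 4 leaf markers (CAB1R, CAB2R, RBCS3 and GLK1) ran from 347 to 11010 FPKM in LY2186, 453 to 16600 FPKM in SE21s and 186 to 5926 FPKM in MH86. The 3 grain markers (GluA2, GluB1 and Wx) summed to 1.07 to 17.0, 1.20 to 6.44 and 0.922 to 5.90 FPKM in LY2186, SE21s and MH86, and the storage protein gene GluB1 stayed under 1 FPKM in every library. The 3 floral organ markers (MADS1, MADS3 and MADS16) were present, with medians of 17.6, 17.5 and 15.7 FPKM in LY2186, SE21s and MH86 and a range of 3.54 to 42.3 FPKM. Single markers differed in level between the lines. Of the 4 leaf markers, 4 were lower in LY2186 than in SE21s, 3 were higher in LY2186 than in MH86 and 4 were higher in SE21s than in MH86, by 0.90 (GLK1) to 3.15 log2 (CAB2R) in the last pair. MADS1 was higher in LY2186 than in SE21s by 0.76 ± 0.21 log2 and lower in SE21s than in MH86 by 1.23 ± 0.21. MADS16 went the other way, at -0.52 ± 0.09 for LY2186 minus SE21s, 0.36 ± 0.09 for LY2186 minus MH86 and 0.88 ± 0.09 for SE21s minus MH86, and MADS3 was higher in LY2186 (0.57 ± 0.13) and in SE21s (0.72 ± 0.13) than in MH86. GluA2 passed in no pair. The part of these markers in the results was not tested. In whole leaves, fewer cells of a type and less RNA per cell cannot be told apart.

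The PRR genes came on one after another through the day in all 3 lines. PRR73 and PRR37 were high from 3 h to 9 h, PRR95 was highest at 9 h, and PRR59 had a high at 0 h and another at 9 h. PRR1 was highest at 9 h and declined through the night, with its largest fall in each line between 21 h and 0 h. A test for differences between the 8 hours of the day called all 5 genes in each line, where 60.7%, 55.3% and 60% of all genes passed in LY2186, SE21s and MH86 and 42.7% in all 3 lines. A fit of a 24 h curve called 5, 4 and 5 of them, where 71.1%, 67.5% and 72.1% of all genes passed and 54.4% passed in all 3 lines, so that a call alone does not set these genes apart. The gene missed by the curve was PRR59 in SE21s (limma adjusted p = 0.0506).

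**Figure D1:**
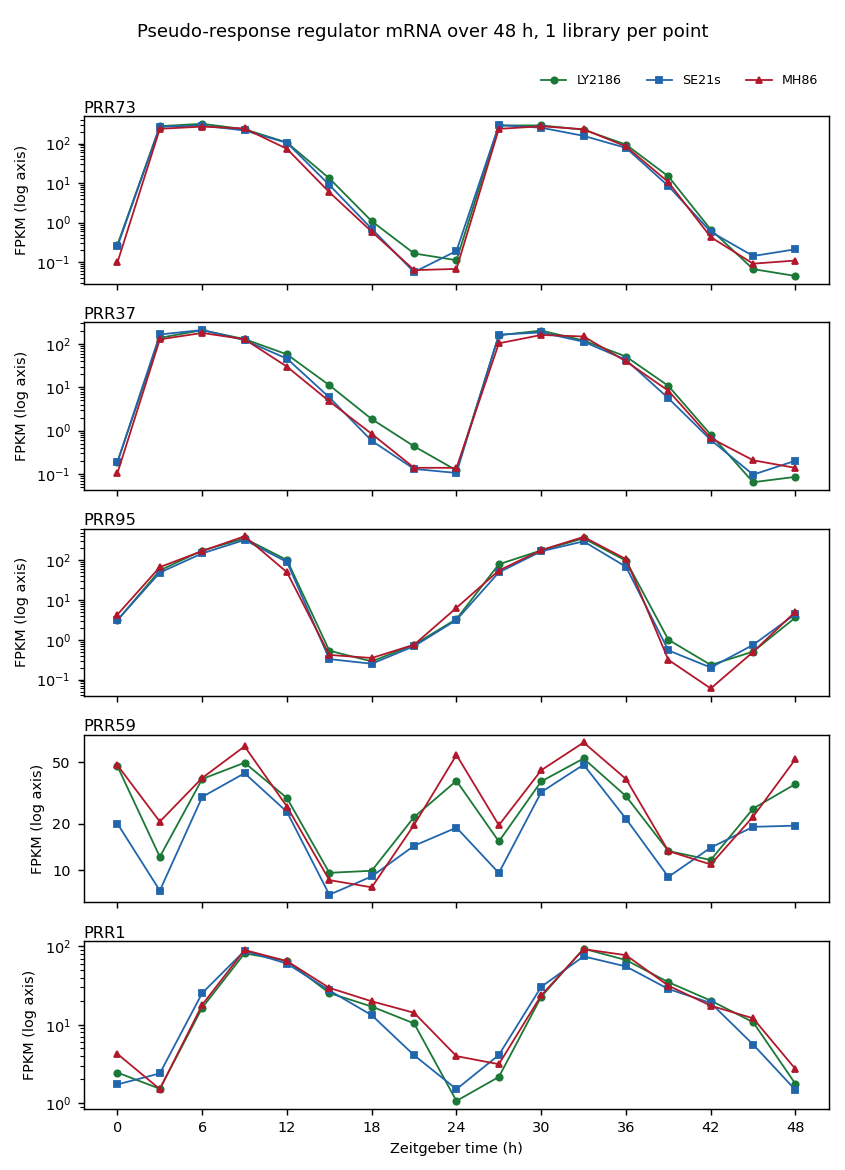
FPKM (log axis) of each PRR gene against Zeitgeber time in hours for LY2186 (circles), SE21s (squares) and MH86 (triangles), 1 library per point. PRR73 and PRR37 leap between 0 and 3 h, PRR95 drops between 12 and 15 h, and PRR59 stays within 6.92 to 67.2 FPKM.

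The centre of each gene's daily mRNA, weighted by FPKM over the 8 hours of a day, gave the same succession. It lay at 5.92 to 6.57 h for PRR73, 6.11 to 6.87 h for PRR37, 7.96 to 8.29 h for PRR95 and 10.6 to 11.1 h for PRR1 over the 6 days (2 in each line). The ranges of PRR73 and PRR37 overlapped, so their order is not resolved, and PRR59, with its separate highs, spanned 5.99 to 8.03 h. The peak of the fitted 24 h curve, on the log2 scale, instead placed PRR95 before PRR73 and PRR37. In LY2186, SE21s and MH86 it lay at 7.36, 7.25 and 7.07 h for PRR95. For PRR73 it lay at 8.25, 8.05 and 8.09 h, and for PRR37 at 8.28, 7.94 and 8.06 h (SE 0.21 to 0.39 h). The place of PRR95 beside these genes thus depends on the measure.

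The day means ordered the genes by level. Over the 6 days PRR73 averaged 99.0 to 119 FPKM, PRR95 73.9 to 92.2 FPKM and PRR37 58.1 to 69.1 FPKM, and these ranges did not overlap. PRR1 (27.5 to 32.7 FPKM) and PRR59 (19.2 to 34.1 FPKM) overlapped, so their order is not resolved. PRR37 and PRR95 were separated only by the gap from 69.1 to 73.9 FPKM, and PRR95 and PRR73 by that from 92.2 to 99.0 FPKM. The order of the day means was not tested against the spread between days. The median SD between the same hour on both days was 0.11 log2 for PRR73 and PRR37, 0.12 for PRR95, 0.13 for PRR59 and 0.17 for PRR1, over 24 pairings of line and hour. The least alike pair was PRR95 in MH86 at 12 h, with 50.2 FPKM at ZT12 and 107 FPKM at ZT36 (SD 0.77 log2).

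PRR73, a morning member, was near the lowest measurable levels at night and had the highest day mean of the family. Its lowest, median and highest values were 0.0448, 14.8 and 318 FPKM in LY2186, 0.0563, 9.01 and 294 FPKM in SE21s, and 0.0631, 10.6 and 276 FPKM in MH86. Nearly all of its increase fell within a single step. Between ZT24 and ZT27 PRR73 climbed from 0.112 to 289 FPKM in LY2186, from 0.193 to 294 FPKM in SE21s and from 0.0677 to 236 FPKM in MH86. The night values are imprecise, with 16 of its 51 values under 0.5 FPKM, so no fold is given. None of the 5 genes was listed at 0 in any library.

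PRR37, its close relative, followed the same course at a lower level. Its lowest, median and highest values were 0.0645, 11.2 and 209 FPKM in LY2186, 0.0965, 5.86 and 211 FPKM in SE21s, and 0.105, 8.34 and 180 FPKM in MH86. From 3 h to 12 h the level of PRR73 over that of PRR37 had a median of 1.83 in LY2186, 1.68 in SE21s and 1.86 in MH86 (8 libraries each, range 1.36 to 2.46 over the lines). The root-mean-square difference between both genes over the 51 libraries was 0.48 log2, after centring each on its own mean, against a median of 3.47 between PRR37 and all genes.

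Both genes stood higher at 15 h in the hybrid than in its parents. At 15 h PRR37 stood at 11.2 and 10.8 FPKM in LY2186, at 5.86 and 5.61 FPKM in SE21s, and at 4.76 and 8.34 FPKM in MH86 (first day, second day). The hybrid's values were above both parents on each day. The difference was 0.88 ± 0.22 log2 for LY2186 minus SE21s (± SE, limma adjusted p = 0.00746) and 0.75 ± 0.22 for LY2186 minus MH86 (0.0438). At this hour 17.5% of all genes differed between LY2186 and SE21s and 5.33% between LY2186 and MH86. PRR73 at 15 h had 13.2 and 14.8 FPKM in LY2186, 9.01 and 8.47 FPKM in SE21s, and 5.90 and 10.6 FPKM in MH86. LY2186 again lay above both parents on each day, by 0.65 ± 0.17 log2 over SE21s (adjusted p = 0.0125) and 0.78 ± 0.17 over MH86 (0.00717). These 4 calls rest partly on the scale for low values. With a pseudocount of 0.1 in place of 0.5 their adjusted p ran from 0.0636 to 0.213. PRR37 lost its call against SE21s without ZT15 or ZT39, and PRR73 without ZT39. Against MH86 PRR73 lost it without ZT15 (0.46 log2), and PRR37 without any of ZT0, ZT3, ZT6, ZT9, ZT15, ZT24, ZT27, ZT30, ZT33 and ZT48. Without ZT15 the PRR37 difference was 0.35 log2, and without ZT39 1.15.

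At 12 h, the sample before, PRR37 stood at 57.7 and 51.4 FPKM in LY2186, 46.0 and 43.1 FPKM in SE21s, and 30.04 and 39.9 FPKM in MH86, again highest in the hybrid on each day. Its 0.29 ± 0.22 log2 over SE21s and 0.65 ± 0.22 over MH86 did not pass (limma adjusted p = 0.415 and 0.102). From 12 h to 15 h PRR37 fell 5.15- and 4.76-fold in LY2186 and 7.84- and 7.68-fold in SE21s. In MH86 it fell 6.31- and 4.78-fold, so on the second day the falls in LY2186 and MH86 were alike. PRR73 fell least in LY2186 on both days (8.07- and 6.40-fold). This step was not tested. At 18 h PRR37 had 1.85 and 0.807 FPKM in LY2186, 0.583 and 0.611 FPKM in SE21s, and 0.843 and 0.674 FPKM in MH86. The hybrid exceeded SE21s by 0.68 ± 0.22 log2 (adjusted p = 0.0355, with 16.9% of all genes called at this hour). The first-day library carried this difference, which was 0.23 without ZT18 and 1.12 without ZT42. The call was also lost without ZT6 or ZT30, with a pseudocount of 0.1 (0.0637) or 1 (0.0587), with no filter on low values (0.0609) and with quantile scaling (0.141).

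Over the whole day PRR37 was higher in LY2186 than in either parent, by 0.23 ± 0.09 log2 over SE21s (adjusted p = 0.0289) and 0.29 ± 0.09 over MH86 (0.0126), and by 0.26 ± 0.08 over the mean of both parents (0.0123). It was above both parents at 10 of 17 times. PRR73 was higher in LY2186 than in MH86 by 0.25 ± 0.07 (0.00574) and above the parental mean by 0.21 ± 0.06 (0.0122), and its 0.16 ± 0.07 over SE21s did not pass (0.0594). It was above both parents at 11 of 17 times. Quantile scaling took each of the 4 calls against MH86 and the parental mean, with adjusted p between 0.228 and 0.521, and so did the second day alone (0.235 to 0.449). The PRR37 call against SE21s was also lost on either day alone, with other scalings, and without ZT15, ZT18, ZT21 or ZT39. Between the parents, SE21s minus MH86, PRR37 (0.06 ± 0.09) and PRR73 (0.10 ± 0.07) did not pass.

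PRR95, with its highest hour at 9 h, reached the highest single values of the family. Its lowest, median and highest values were 0.234, 3.65 and 356 FPKM in LY2186, 0.201, 4.47 and 325 FPKM in SE21s, and 0.0599, 6.39 and 402 FPKM in MH86. At 9 h it stood at 355 and 356 FPKM in LY2186, 325 and 299 FPKM in SE21s, and 402 and 387 FPKM in MH86. The lines did not overlap at this hour, yet the differences of 0.19 (LY2186 minus SE21s), -0.15 (LY2186 minus MH86) and -0.34 log2 (SE21s minus MH86) did not pass the test, which 7.87%, 5.72% and 19.5% of all genes did. The spread in this test is pooled over all hours and is not that of 9 h alone.

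The loss of PRR95 mRNA in the evening was its steepest change. Between 12 h and 15 h on the first day it dropped from 102 to 0.533 FPKM in LY2186, from 90.9 to 0.328 FPKM in SE21s and from 50.2 to 0.418 FPKM in MH86. PRR73 and PRR37, by contrast, still had 13.2 and 11.2 FPKM in LY2186 at ZT15. PRR95 began to return in the night, reaching 3.11, 3.34 and 3.65 FPKM in LY2186, 3.16, 3.17 and 4.47 FPKM in SE21s, and 4.33, 6.39 and 5.13 FPKM in MH86 at 0 h. At that hour it was lower in LY2186 than in MH86 by 0.57 ± 0.20 log2 (adjusted p = 0.0476, 22% of all genes called) and lower in SE21s than in MH86 by 0.50 ± 0.20 (0.0441, 52.5% called). The first call was lost when any time other than ZT3, ZT12, ZT27 and ZT36 was left out. The second was lost without ZT0, ZT6, ZT9, ZT24, ZT30 or ZT33, and without ZT24 its value was -0.29. Processing also ended both calls: the first was lost with a pseudocount of 0.1 or 1, no filter, quantile scaling, a plain variance prior or no time block (adjusted p 0.0514 to 0.103), and the second with a pseudocount of 0.1, no filter, median-ratio or quantile scaling (0.0534 to 0.11). In level over the whole day PRR95 passed in no pair, with differences of 0.16 ± 0.09 (LY2186 minus SE21s), 0.03 ± 0.09 (LY2186 minus MH86) and -0.13 ± 0.09 log2 (SE21s minus MH86).

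PRR59, the relative of PRR95, gave the most line differences by hour. Its lowest, median and highest values were 9.60, 29.3 and 52.9 FPKM in LY2186, 6.92, 19.1 and 48.3 FPKM in SE21s, and 7.73, 25.8 and 67.2 FPKM in MH86. It never switched off, and it was high both at 0 h and at 9 h, with a dip at 3 h between. SE21s was farthest from both other lines at 0 h. There PRR59 stood at 47.2, 37.9 and 36.2 FPKM in LY2186, at 20, 18.9 and 19.4 FPKM in SE21s and at 47.9, 55.9 and 52.5 FPKM in MH86 (ZT0, ZT24 and ZT48). The lines did not overlap, with SE21s lowest and MH86 highest.

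**Figure D2:**
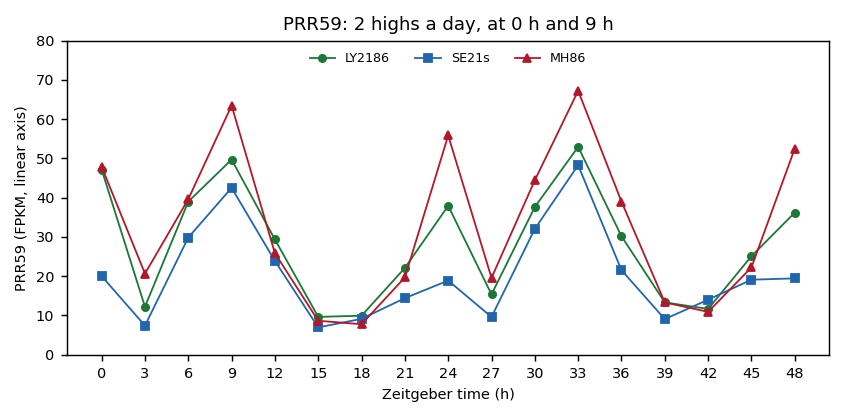
PRR59 (FPKM, linear axis) against Zeitgeber time in hours for LY2186 (circles), SE21s (squares) and MH86 (triangles), 1 library per point. At ZT0, ZT24 and ZT48 the SE21s values stay between 18.9 and 20 FPKM while those of LY2186 and MH86 lie between 36.2 and 55.9 FPKM.

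At 0 h PRR59 was higher in LY2186 than in SE21s by 1.03 ± 0.12 log2 (limma adjusted p = 1.57e-06, 33.2% of all genes called) and lower in SE21s than in MH86 by 1.40 ± 0.12 (4.35e-09, 52.5% called). It was lower in LY2186 than in MH86 by 0.37 ± 0.12 (0.0339), a call lost without ZT24 or ZT48 and with no filter on low values (0.0536). At the dip at 3 h it stood at 12.2 and 15.3 FPKM in LY2186, 7.36 and 9.58 FPKM in SE21s, and 20.6 and 19.5 FPKM in MH86, again without overlap. The differences were 0.67 ± 0.15 (LY2186 minus SE21s, adjusted p = 0.00484, 11.2% called), -0.54 ± 0.15 (LY2186 minus MH86, 0.0353, 5.5% called) and -1.21 ± 0.15 log2 (SE21s minus MH86, 2.04e-06, 30.8% called). Of these the difference between SE21s and MH86 passed without each single time point, the LY2186 minus SE21s call was lost without ZT3 or ZT27, and the LY2186 minus MH86 call without ZT3, ZT6, ZT9, ZT27, ZT30 or ZT33 (-0.34 without ZT3).

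At the afternoon high of PRR59 fewer differences passed. At 9 h it stood at 49.7 and 52.9 FPKM in LY2186, 42.5 and 48.3 FPKM in SE21s, and 63.5 and 67.2 FPKM in MH86. SE21s was lower than MH86 by 0.52 ± 0.15 log2 (adjusted p = 0.0158, 19.5% called), and LY2186 passed against neither parent (0.18 over SE21s and -0.35 against MH86). The call between the parents was lost without ZT9 or ZT33. The high at 0 h was thus 0.949 and 0.716 of that at 9 h in LY2186, 0.471 and 0.391 in SE21s and 0.754 and 0.831 in MH86 (first day, second day). A contrast of the 0 h difference with the 9 h difference, chosen after these values were seen, gave 0.85 ± 0.19 log2 for LY2186 minus SE21s (adjusted p = 0.0163, 3.65% of all genes called), -0.02 ± 0.19 for LY2186 minus MH86 (0.973, 3.75%) and -0.87 ± 0.19 for SE21s minus MH86 (0.00482, 11.2%). The first was lost without ZT0, ZT9 or ZT33 (lowest value 0.76), and the last without ZT33 (adjusted p = 0.0756).

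At further hours PRR59 was lower in SE21s than in MH86 by 0.43 ± 0.15 log2 at 6 h (adjusted p = 0.0473) and 0.48 ± 0.15 at 12 h (0.0232), where 17.9% and 24% of all genes passed. At 12 h the difference was -0.11 log2 without ZT36 and -0.84 without ZT12. The call at 6 h was lost when any time other than ZT0, ZT3, ZT12, ZT27 and ZT36 was left out, with no filter (0.0641) and with a plain variance prior (0.0556). It was higher in LY2186 than in SE21s by 0.49 ± 0.15 at 15 h (0.0275) and 0.49 ± 0.15 at 21 h (0.014), hours at which 17.5% and 35.7% of all genes passed. The call at 15 h was lost without ZT15 or ZT39, and the call at 21 h without ZT21.

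Over the whole day PRR59 was higher in LY2186 than in SE21s by 0.47 ± 0.10 log2 (adjusted p = 0.000159) and lower in SE21s than in MH86 by 0.61 ± 0.10 (2.07e-06), and both calls held without each single time point. Without the block for time, so that the daily swing enters the spread, neither passed (0.265 and 0.0979). Leaf markers and MADS16 moved against PRR59 in both pairs and MADS1 moved with it, and their part was not tested. PRR59 lay higher in LY2186 than in SE21s at 16 of 17 times and lower in SE21s than in MH86 at 15 of 17. LY2186 and MH86 did not differ past the threshold (-0.14 ± 0.10, adjusted p = 0.296). The hybrid lay between its parents at 11 of 17 times and below both at none.

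PRR1, the member with the latest daily centre, had similar highs in the 3 lines. Its lowest, median and highest values were 1.06, 17.1 and 93.5 FPKM in LY2186, 1.47, 19.0 and 88.1 FPKM in SE21s, and 1.51, 17.99 and 92.5 FPKM in MH86. At 9 h it had 81.8 and 93.5 FPKM in LY2186, 88.1 and 74.7 FPKM in SE21s, and 90.0 and 92.5 FPKM in MH86. LY2186 overlapped with both parents there, while both SE21s values lay below both MH86 values, and the differences of 0.11 (LY2186 minus SE21s), -0.06 (LY2186 minus MH86) and -0.17 log2 (SE21s minus MH86) did not pass.

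The lines separated on its way down. At 21 h PRR1 stood at 10.4 and 10.8 FPKM in LY2186, at 4.08 and 5.59 FPKM in SE21s and at 14.2 and 12.1 FPKM in MH86, with no overlap between lines. It was higher in LY2186 than in SE21s by 1.07 ± 0.20 log2 (adjusted p = 0.000345, 35.7% of all genes called) and lower in SE21s than in MH86 by 1.37 ± 0.20 (1.02e-05, 48% called). The first missed the threshold without ZT21 (0.89, adjusted p = 0.0533), while the second held without each single time point. LY2186 and MH86 did not differ past the threshold at this hour (-0.30 log2, 7.7% called).

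By 0 h PRR1 in the hybrid overlapped with SE21s. It stood at 2.45, 1.06 and 1.76 FPKM in LY2186, 1.73, 1.503 and 1.47 FPKM in SE21s, and 4.24, 3.97 and 2.71 FPKM in MH86. All values of LY2186 and SE21s were below all values of MH86, by 0.90 ± 0.16 log2 for LY2186 (adjusted p = 0.000384, 22% called) and 0.99 ± 0.16 for SE21s (3.56e-05, 52.5% called). Both calls held without each single time point, with -0.60 for LY2186 minus MH86 without ZT24. At 3 h PRR1 had 1.52 and 2.16 FPKM in LY2186, 2.39 and 4.11 FPKM in SE21s, and 1.51 and 3.14 FPKM in MH86. It was lower in LY2186 than in SE21s by 0.66 ± 0.20 (0.0369, 11.2% called), which was lost without ZT3, ZT6, ZT27 or ZT30 and with no filter on low values (0.0552). At 6 h it had 16.5 and 22.8 FPKM in LY2186, 25.4 and 30.5 FPKM in SE21s, and 17.99 and 23.7 FPKM in MH86. SE21s was highest on both days at this hour, and the differences of -0.51 (LY2186 minus SE21s, 7.66% of all genes called), -0.09 (LY2186 minus MH86, 3.57%) and 0.42 log2 (SE21s minus MH86, 17.9%) did not pass.

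In level over the whole day PRR1 was lower in SE21s than in MH86 by 0.33 ± 0.13 log2 (adjusted p = 0.0197), a call lost with median-ratio scaling (0.0664), on either day alone, and without ZT0 or ZT21. The hybrid passed against neither parent (0.08 ± 0.13 over SE21s and -0.25 ± 0.13 against MH86).

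**Figure D3:**
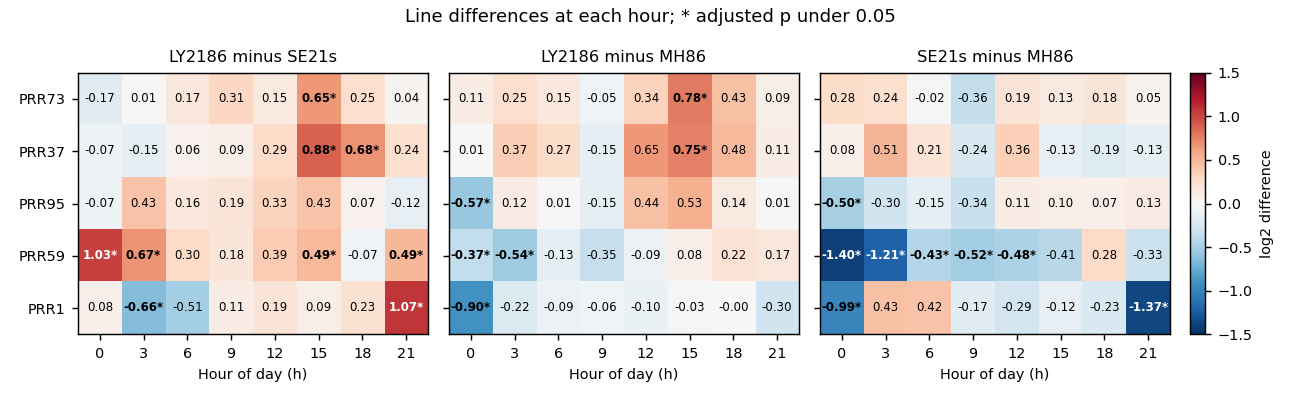
Log2 difference of each PRR gene (rows) at each hour of the day (columns) for LY2186 minus SE21s, LY2186 minus MH86 and SE21s minus MH86. Red is higher and blue lower in the line named first, and an asterisk marks a limma adjusted p under 0.05. The largest differences, of -1.40, -1.37 and -1.21, lie in PRR59 at 0 h, PRR1 at 21 h and PRR59 at 3 h between SE21s and MH86.

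Counted over 5 genes and 8 hours, 9 of 40 differences passed for LY2186 minus SE21s (8 higher and 1 lower in LY2186), against 17.4% of all gene and hour pairs (10% higher and 7.4% lower). For LY2186 minus MH86 it was 6 of 40 (2 higher and 4 lower in LY2186), against 7.37% (4.04% higher and 3.33% lower), and for SE21s minus MH86 8 of 40, all lower in SE21s, against 29.9% (13.6% higher and 16.3% lower). The pairs share libraries, so these counts are not independent of each other. Leaving out 1 time gave 6 to 9, 3 to 7 and 5 to 10 calls, with 3 for LY2186 minus MH86 without ZT6, ZT9, ZT15, ZT24, ZT30, ZT33 or ZT48 and 5 for SE21s minus MH86 without ZT9 or ZT33. PRR59 gave 4, 2 and 5 of the calls and PRR1 2, 1 and 2. In level over the whole day 2 of 5 genes passed in each pair: PRR59 and PRR37 for LY2186 minus SE21s, PRR37 and PRR73 for LY2186 minus MH86, and PRR59 and PRR1 for SE21s minus MH86. Of all genes 57.2% passed for LY2186 minus SE21s (32.8% higher), 32.4% for LY2186 minus MH86 (14.8% higher), 69% for SE21s minus MH86 (40.4% lower) and 26.8% against the parental mean (16.3% higher). The median difference over the 5 genes was 0.16, 0.03 and -0.13 log2, where the median of all genes was 0.04, -0.02 and -0.08. Other scalings moved the median of all genes by less than 0.1. They also moved the balance of calls over all genes, with higher calls at 57.3% of calls for LY2186 minus SE21s (47% with quantile scaling) and at 60.8% against the parental mean (46.1%).

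The summed level of the family shows how its make-up changed over the day. In LY2186 the 5 genes summed to a mean of 45.8 FPKM at 0 h, 516 FPKM at 3 h, 849 FPKM at 9 h and 32.0 FPKM at 18 h. In SE21s the means were 24.98, 507, 743 and 29.1 FPKM at these hours, and in MH86 61.2, 437, 928 and 29.5 FPKM. At 0 h PRR59 made up 88.2% of the sum in LY2186, 77.8% in SE21s and 85.1% in MH86, so that the family's mRNA at dawn was mostly that of a single member. At 3 h PRR73 made up 54.8%, 55.4% and 54.3%, and at 9 h PRR95 made up 41.9%, 41.99% and 42.6%. At 18 h PRR1 held 58.6% in LY2186, 55.3% in SE21s and 63.5% in MH86, and by 21 h PRR59 led again with 67.1%, 74.4% and 59.9%. The leading gene at each of these hours was thus shared by the 3 lines.

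**Figure D4:**
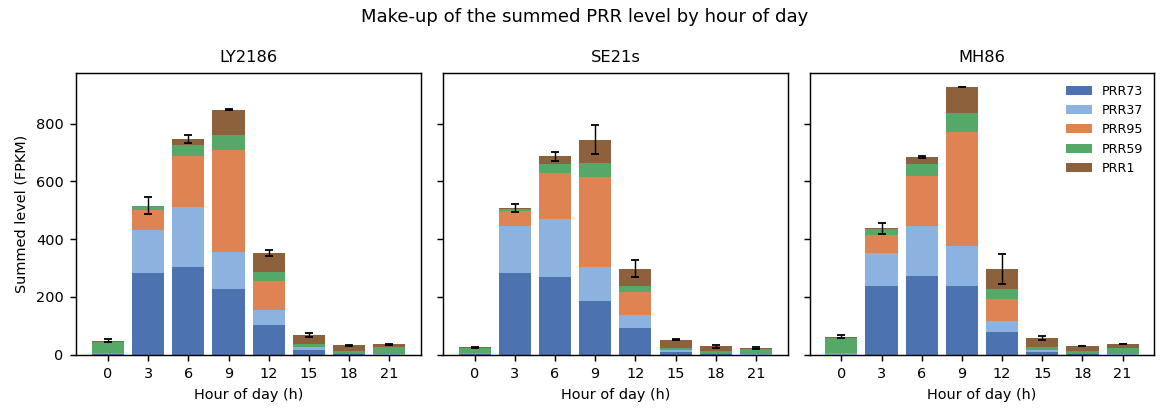
Mean summed FPKM of the 5 PRR genes at each hour of the day in LY2186, SE21s and MH86, stacked by gene; bars average 2 libraries (3 at 0 h) and error bars span the lowest and highest sum. The sum is highest at 9 h in each line, at 849, 743 and 928 FPKM.

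The peak of the fitted 24 h curve was compared between lines for genes called rhythmic in both lines of a pair. PRR1 peaked later in LY2186 than in SE21s by 0.79 ± 0.24 h (limma adjusted p = 0.0413) and earlier in SE21s than in MH86 by 0.75 ± 0.24 h (0.0237). PRR37 peaked later in LY2186 than in SE21s by 0.34 ± 0.09 h (0.022). Of all genes rhythmic in both lines 7.81% were shifted for LY2186 minus SE21s, 1.28% for LY2186 minus MH86 and 21.3% for SE21s minus MH86. For LY2186 minus MH86 none of the 5 genes passed in limma, with shifts from 0.03 to 0.55 h, and 3 had an unadjusted p under 0.05 (PRR95, PRR73 and PRR37). PRR73 was shifted by 0.20 ± 0.07 h (0.0637) and PRR95 by 0.11 ± 0.09 h (0.522) in LY2186 minus SE21s. PRR59, not called rhythmic in SE21s, was left out of the adjustment in the pairs with that line. Its shifts there were -1.44 ± 0.55 h (LY2186 minus SE21s) and 1.99 ± 0.55 h (SE21s minus MH86). Their unadjusted limma p were 0.0135 and 0.00102. The shift is a change of a fitted curve and is smaller than the 3 h between samples. PRR1's shift between LY2186 and SE21s was lost when any time other than ZT0, ZT15, ZT24, ZT33, ZT36 and ZT42 was left out (range 0.63 to 0.92 h). PRR37's was lost without ZT18, ZT39 or ZT48, and PRR1's between SE21s and MH86 without ZT3, ZT6, ZT21, ZT27 or ZT30. A pseudocount of 0.1 also took PRR1's shift between LY2186 and SE21s (adjusted p = 0.05).

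Amplitude and shape were compared as well. Tested for peak time and amplitude together, the curves of PRR1 (adjusted p = 0.012) and PRR59 (0.00273) differed between SE21s and MH86, and that of PRR37 between LY2186 and SE21s (0.0243), where 27.5% and 12.6% of all genes did. None of the 5 passed between LY2186 and MH86 (limma, 2.33% of all genes), where PRR95 and PRR59 had an unadjusted p under 0.05. The PRR37 call was lost without ZT3, ZT18 or ZT39 and with a pseudocount of 0.1 (0.0533). No amplitude difference of a PRR gene rhythmic in both lines passed in limma. Of all such genes 8.54% (LY2186 minus SE21s), 1.01% (LY2186 minus MH86) and 16.9% (SE21s minus MH86) passed. At an unadjusted p under 0.05 the counts were 0 of 4, 2 of 5 and 1 of 4. The trough-to-peak difference of PRR1 was 0.64 ± 0.28 log2 for LY2186 minus MH86 and 0.68 ± 0.28 for SE21s minus MH86 (adjusted p = 0.0954), and that of PRR59 was -0.57 ± 0.23 for LY2186 minus MH86. PRR59 was left out of the adjustment in the pairs with SE21s, where it was not called rhythmic. Its differences there were 0.13 ± 0.23 for LY2186 minus SE21s and -0.69 ± 0.23 for SE21s minus MH86 (unadjusted limma p = 0.592 and 0.00553).

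**Figure D5:**
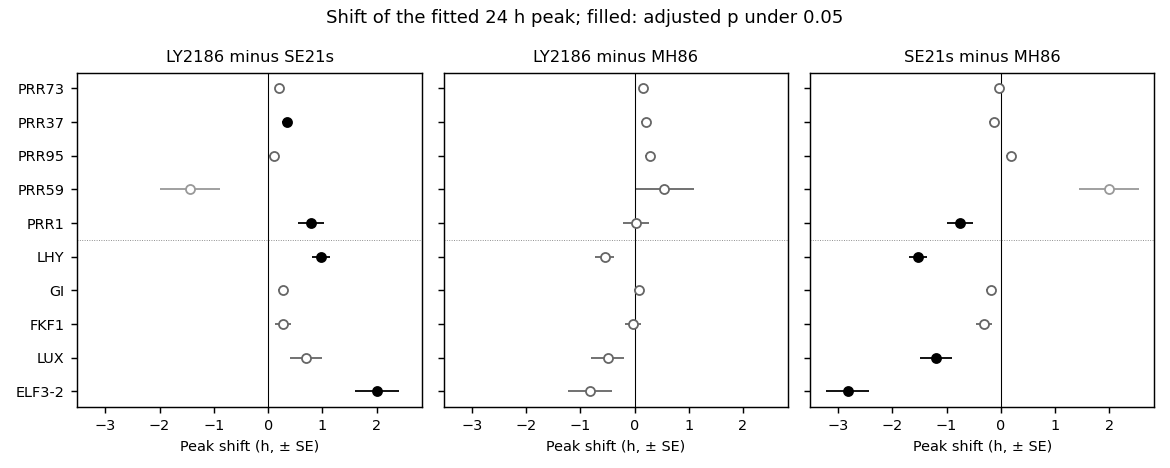
Shift of the fitted 24 h peak in hours (± SE) for the 5 PRR genes (above the dotted line) and 5 other clock genes, for LY2186 minus SE21s, LY2186 minus MH86 and SE21s minus MH86. Filled points passed a limma adjusted p of 0.05, and light grey points (PRR59 where SE21s was not called rhythmic) were not adjusted; shifts of LHY, ELF3-2 and LUX between SE21s and MH86 are -1.52, -2.83 and -1.19 h.

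Other clock genes stood beside these shifts. LHY, the dawn MYB gene, peaked later in LY2186 than in SE21s by 0.97 ± 0.17 h (adjusted p = 0.00112) and earlier in SE21s than in MH86 by 1.52 ± 0.17 h (4.97e-07). At 21 h LHY had 189 and 453 FPKM in LY2186, 1692 and 1773 FPKM in SE21s, and 55.02 and 92.5 FPKM in MH86. SE21s had the most LHY mRNA and the least PRR1 mRNA at that hour. A link between LHY and PRR1 was not tested. ELF3-2, a gene of the evening complex, peaked later in LY2186 than in SE21s by 2.0 ± 0.40 h (0.00325) and earlier in SE21s than in MH86 by 2.83 ± 0.40 h (1.22e-05). LUX, its partner, peaked earlier in SE21s than in MH86 by 1.19 ± 0.30 h (0.00436). Of 7 other clock genes tested, 2, 0 and 3 were shifted in LY2186 minus SE21s, LY2186 minus MH86 and SE21s minus MH86. Of all genes rhythmic in both lines 7.81%, 1.28% and 21.3% were shifted in these pairs.

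Of 8 other clock genes, 7 differed in level for LY2186 minus SE21s (6 higher and 1 lower), 2 for LY2186 minus MH86 (both higher) and 4 for SE21s minus MH86 (1 higher and 3 lower). Of all genes 57.2%, 32.4% and 69% differed in these pairs. GI, which in Arabidopsis helps to time flowering and protein turnover in the clock, was higher in LY2186 than in SE21s by 0.46 ± 0.10 log2 (adjusted p = 0.00017) and lower in SE21s than in MH86 by 0.38 ± 0.10 (0.00091). LUX was lower in SE21s than in MH86 by 1.46 ± 0.27 (1.18e-05). The list also holds LHY, FKF1, ELF3-1, ELF3-2 and a pair of ZTL-like genes, LOC_Os06g47890 and LOC_Os02g05700. Of 4 flowering genes of the photoperiod pathway, 3 differed in level for LY2186 minus SE21s (2 higher and 1 lower), 0 for LY2186 minus MH86 (limma, none with an unadjusted p under 0.05) and 3 for SE21s minus MH86 (1 higher and 2 lower). Hd3a, a florigen gene, was higher in LY2186 than in SE21s by 1.94 ± 0.28 and lower in SE21s than in MH86 by 1.97 ± 0.28. PRR37 was higher in LY2186 than in SE21s by 0.23 ± 0.09 and did not differ past the threshold between SE21s and MH86. A link between Hd3a and PRR37 was not tested. How the calls of other clock genes and flowering genes, in level and peak shift, depend on processing or single times was not tested.

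Genes outside the family that followed each PRR most closely were found by the root-mean-square difference of centred log2 values over the 51 libraries. The nearest to PRR73 and to PRR37 was GI, at 1.01 and 1.07 log2, followed by LOC_Os11g03580 at 1.46 and 1.12, where the median over all genes was 3.87 and 3.47. For PRR95 they were LOC_Os12g03350 (1.19) and LOC_Os11g03580 (1.28), with a median of 3.41. For PRR1 they were LOC_Os12g15400 (0.50) and LOC_Os06g45980 (0.55), with a median of 1.94, and for PRR59 LOC_Os12g02490 (0.51) and LOC_Os08g33420 (0.55), with a median of 1.05. Libraries and times are shared by all genes, and genes of small swing such as PRR59 lie nearer to most others.

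The second day was set against the first at the same hours within each line (48 libraries). PRR59 was higher on the second day by 0.20 ± 0.05 log2 (limma adjusted p = 0.00294, 42% of all genes called and 25.5% higher), with 0.12 ± 0.09 in LY2186, 0.22 ± 0.09 in SE21s and 0.28 ± 0.09 in MH86, none of which passed alone (limma). PRR1 (0.14 ± 0.07), PRR95 (0.04 ± 0.07), PRR73 (-0.06 ± 0.05) and PRR37 (-0.07 ± 0.06) did not pass. Each day has 1 sampling in the field, so day and sampling cannot be told apart.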

How the data were processed

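Strand-specific libraries were made from total RNA of flag leaves, per the labels' protocols. The authors deposited 1 table of FPKM values, and TopHat2 and Cuffdiff are named, per the submitters' processing notes. No source used here gives the build, the annotation or the handling of multiply mapping fragments. Depth is unknown without fragment counts, so no counting interval is given and low values are imprecise. Line and time of each library come from the labels. The reference gene table (ASM3414082v1) matched 0 table identifiers.

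Genes averaging at least 1 FPKM (16842) were fitted on the log2(FPKM + 0.5) scale in limma 3.58.1 (R 4.3.3), with a variance prior that was trended and robust. Tests were two-sided, with Benjamini-Hochberg adjustment over all genes at 0.05. Differences on this scale understate the change of low genes. Rhythm was tested in each line with 24 h cosine and sine terms, and hours with 8 hour means. Lines were compared beside a block for the 17 times, over the day, at each hour and in the 24 h curve. Peak shifts and amplitude differences are linearised from that curve and adjusted over genes rhythmic in both lines. Days were compared within line and hour. Alternatives changed the pseudocount (0.1 or 1), filter, scaling, variance prior, curve, block and days, and left out each time.

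The 5 genes and the clock, flowering and marker lists were chosen with earlier results of these data known. Named genes are the 5 members, those lists, and for each member the 2 tested genes nearest in pattern. The fits were tested on simulated data.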

Additional observations from a re-analysis of the deposited data

Results flagged for a closer look

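The daily curve of some PRR genes differed between lines by a test of the difference itself. For PRR1 in SE21s minus MH86 the adjusted p was 0.012, for PRR37 in LY2186 minus SE21s 0.0243, and for PRR59 in SE21s minus MH86 0.00273 (limma, peak time and amplitude together, 17 libraries per line). The fitted peak of PRR1 was 0.786 h later in LY2186 than in SE21s, and the difference for SE21s minus MH86 was -0.754 h. The fitted peak of PRR37 was 0.341 h later in LY2186 than in SE21s. Of all genes 27.5% differed in curve for SE21s minus MH86 and 12.6% for LY2186 minus SE21s. Of all genes rhythmic in both lines 21.3% and 7.81% were shifted in these pairs. Each of these PRR shifts, and the PRR37 curve call, was lost when certain single times were left out, as given above.

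The difference between lines at 0 h departed from that at 9 h for PRR59 and PRR1. For PRR59 it departed by 0.851 log2 in LY2186 minus SE21s and by -0.874 log2 in SE21s minus MH86, and for PRR1 by -0.816 log2 in SE21s minus MH86 (adjusted p = 0.0448). This contrast was chosen after the values were seen, and the PRR1 call was lost without ZT0, ZT3, ZT6, ZT9, ZT15, ZT24, ZT27, ZT30, ZT33 or ZT39, with a pseudocount of 1 (0.0675), with no filter on low values (0.0754) and with quantile scaling (0.12).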

How the results depend on the processing

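Of 71 single results, those with a signed difference kept their direction under every alternative run. The 71 were the results already called at the main settings, with the rhythm of PRR59 in SE21s added. Only that added result could gain a call, and differences not called were not followed. Results for rhythm, hours and curve differences have no direction and could not reverse. With one time left out in turn 1083 of the values stayed on their side of the threshold, 121 lost a call and 3 gained one, and under the other alternatives 427 stayed, 72 lost and 4 gained. Counts of PRR genes called in level over the day (2 in each pair and against the parental mean) were 1 for LY2186 minus SE21s with a pseudocount of 0.1, median-ratio scaling, quantile scaling or either day alone, 0 for LY2186 minus MH86 with quantile scaling or the second day alone, 1 for SE21s minus MH86 on either day alone, and 1 (pseudocount 0.1) or 0 (quantile scaling, second day) against the parental mean. Without the time block, which here stands for a replicate block since each time is sampled once in each line, all 4 counts were 0, differences by hour numbered 5, 3 and 5 of 40 (9, 6 and 8 with it, in the order LY2186 minus SE21s, LY2186 minus MH86, SE21s minus MH86), and the counts of curve differences and peak shifts were 0. In level the daily swing then enters the spread. The fit by hour kept a mean for each hour, so what entered there was the difference between days shared by the lines. The curve fit kept the 24 h curve, so departures from that curve and between days entered. By hour PRR59 then passed only at 0 h for LY2186 minus SE21s and at 0 h and 3 h for SE21s minus MH86, and its contrasts of 0 h with 9 h missed (0.123 and 0.0501). The count by hour for LY2186 minus MH86 was 3 with a pseudocount of 0.1 or no filter. For LY2186 minus SE21s curve differences (1) were 0 with a pseudocount of 0.1 and 3 with quantile scaling or a curve of 24 h and 12 h, peak shifts (2) were 1 with a pseudocount of 0.1 and 4 with the longer curve, and amplitude differences (0) were 2 with quantile scaling. For SE21s minus MH86 peak shifts (1) were 2 with a pseudocount of 1, either other scaling or the longer curve, and amplitude differences (0) were 1 with a pseudocount of 1 or quantile scaling and 2 with the longer curve. The day difference (1 gene) was 0 in each line alone. The cause of these changes was not tested.

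Leaving out one time gave 1 to 3 genes in level for LY2186 minus SE21s (1 without ZT15, ZT18, ZT21 or ZT39) and for SE21s minus MH86 (1 without ZT0 or ZT21), and 2 in the other level comparisons. By hour it gave 6 to 9 (LY2186 minus SE21s), 3 to 7 (LY2186 minus MH86) and 5 to 10 (SE21s minus MH86). Curve differences ran from 0 to 2 (0 without ZT3, ZT18 or ZT39), 0 to 1 (1 without ZT27) and stayed at 2 in this order. Peak shifts ran from 0 to 2 (0 without ZT18, ZT39 or ZT48), 0 to 1 (1 without ZT27) and 0 to 2 (0 without ZT6, ZT21 or ZT30). Amplitude differences stayed at 0 in both hybrid pairs and ran from 0 to 2 for SE21s minus MH86 (2 without ZT3). The day difference gave 1 to 2 (2 without ZT0 or ZT24). Rhythm was called in 4 to 5 genes in LY2186 and in SE21s and in 5 in MH86, and PRR59 lost its call in LY2186 when any time between 6 h and 18 h of either day was left out. PRR59 in SE21s passed the 24 h test with a pseudocount of 1 (adjusted p = 0.0481), median-ratio scaling (0.0384), quantile scaling (0.0296) and an added 12 h term (2.12e-05). In LY2186 it missed with no filter on low values (0.109). The depth behind single values is unknown, and night values of PRR73, PRR37 and PRR95 under 0.5 FPKM (16, 15 and 10 of 51) carry little precision.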
